A study of Homo sapiens with 2 samples.

Results

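The cytochromes P450 outside the CYP1 family and outside the main steps of sterol and bile acid synthesis were followed in HepG2, a line of human hepatocellular carcinoma cells, with and without an herbal extract. Members were all genes of the probe annotation with a P450 symbol (CYP, family number, subfamily letter, gene number) that does not end in P, leaving out CYP1A1, CYP1A2, CYP1B1, CYP51A1, CYP7A1, CYP7B1, CYP8B1 and CYP27A1. This gave 44 genes on 89 probe sets, of which 80 name 1 gene and 9 name several, and 40 of the 44 have a probe set of their own among 19775 such genes on the array. One group received 218 μg/ml of the aqueous ethanolic extract of PADMA28, a polyherbal preparation, for 18 h, and the other received the solvent, 0.9% EtOH, for the same time. For each group the cells of 3 cultures were pooled and 1 Affymetrix Human Genome U133 Plus 2.0 array was hybridised, so the spread between cultures is unknown and the groups could not be tested against each other. The question was which of these enzymes have a different transcript level after the extract.

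P450 enzymes are heme proteins that insert 1 oxygen atom into their substrate, with electrons from a reductase in the endoplasmic reticulum or from ferredoxin in mitochondria. Families CYP2 and CYP3 are best known for the turnover of drugs in hepatocytes, family CYP4 for fatty acids and leukotrienes, and other families for steroid hormones, retinoic acid and vitamin D. HepG2 cells are known to have lost much of the drug-metabolizing P450 expression of the liver.

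Values are log2 expression values from GCRMA, a method that corrects each probe for its sequence-dependent background, and a difference is PADMA28 minus EtOH on that log2 scale. A gene is represented by the brightest probe set of its own, and it was taken as above background from 2 log2 units over the most frequent value of an array, which is 4.25 for EtOH and 4.35 for PADMA28. A level cannot be compared between genes, because each probe set has its own brightness. All 6 measured hepatocyte markers, such as albumin (ALB) and alpha-fetoprotein (AFP), were far above background on both arrays, with values from 12.84 to 16.62. None of 3 leukocyte markers was above background. Of 3 fibroblast markers COL1A1 was above (difference -0.03), while COL1A2 and DCN were below on both arrays. Of 3 endothelial markers PECAM1 was above (0.32), while VWF and CDH5 were below on both arrays. Both groups were cultures of the HepG2 line, and the reason for the PECAM1 signal was not tested.

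Among the 40 P450 genes that have their own probe set, 13 were above background on at least 1 array (32.5%, against 52.4% of all genes), 12 of them on both. With PADMA28, 3 were more than 2-fold higher (CYP24A1, CYP4F11 and CYP2S1) and none was more than 2-fold lower. Over all genes 0.875% were more than 2-fold higher and 0.384% more than 2-fold lower, and over the 10361 genes above background 1.57% and 0.705%. The 3 higher genes are 7.5% of the members and 23.1% of those above background, but all 3 were picked by the study from these same arrays, so the count is not independent evidence. The median difference was -0.02 over the members, the same as over all genes, and 0.12 over the members above background against 0.06 over all genes above background.

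**Figure D1:**
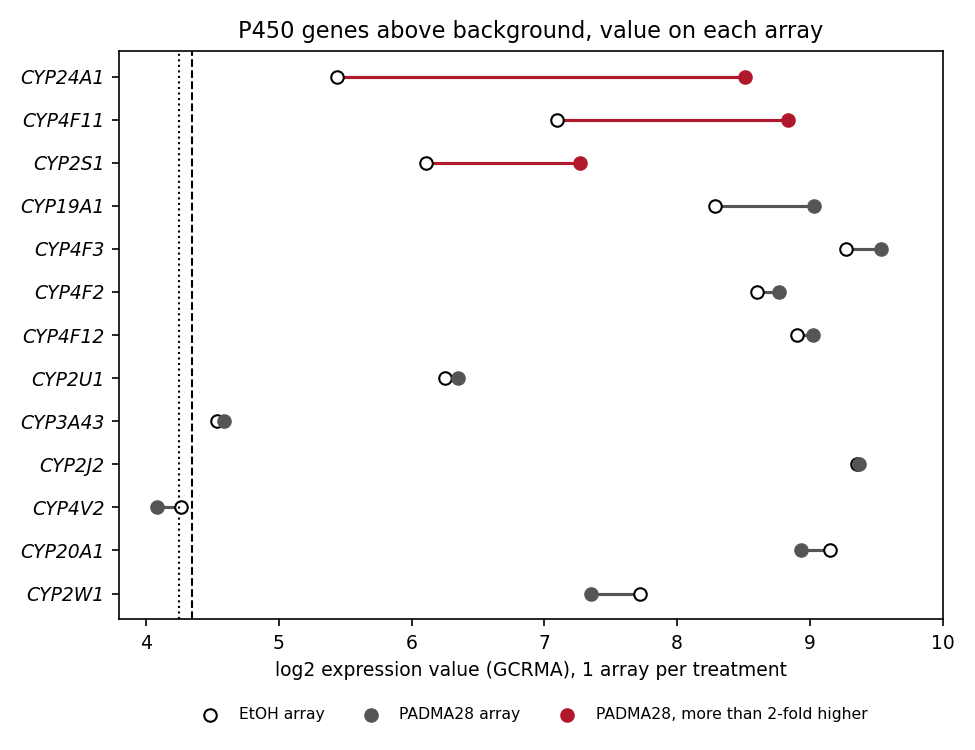
Log2 expression value of the 13 P450 genes above background on the EtOH array (open circles) and on the PADMA28 array (filled circles), with 1 array per treatment and lines joining the values of a gene. Vertical lines mark the background limits of 4.25 (EtOH, dotted) and 4.35 (PADMA28, dashed), and CYP24A1, CYP4F11 and CYP2S1, in red, are more than 2-fold higher.

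CYP24A1, the mitochondrial hydroxylase that starts the breakdown of active vitamin D, had the largest difference of the members. The only CYP24A1 probe set lay at 5.44 with EtOH and at 8.51 with PADMA28, above background on both arrays. This is a difference of 3.07, or 8.40-fold, and placed it at rank 7 of 19775 genes. Of the genes above background 0.0676% differed by at least as much in either direction. The size leaned on the low end of the scale, as the difference was 2.00 after 64 had been added to both linear values. The study also measured CYP24A1 by quantitative PCR in independent experiments, where it was higher but not significantly so. CYP2S1 was significantly higher in those, and CYP4F11 was not measured.

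The other enzymes of vitamin D were below background on both arrays. CYP27B1, which makes the active hormone, was at 3.13 and 3.50, and CYP2R1, the hydroxylase of the liver that acts on vitamin D before it, was at 2.47 and 2.45 on its brightest of 3 probe sets. The vitamin D receptor VDR was also below background, at 3.15 and 3.05. Its partner RXRA, the retinoid X receptor alpha, was at 10.23 and 9.95, a difference of -0.28. Of 14 measured genes that handle vitamin D or are known as its targets, 2 were more than 2-fold higher and none lower, where 0.875% of all genes were higher and 0.384% lower. The list was drawn up with earlier results known. CD14 was picked by the study from these arrays, and SPP1 is listed in a gene network that the study built from them. The count is therefore not independent evidence. The genes past 2-fold were the lipopolysaccharide co-receptor CD14 (from 4.36, just over the background limit, to 6.75) and osteopontin SPP1 (from 12.27 to 13.65). The calcium channel TRPV6, the calcium-binding S100G and CALB1, the antimicrobial peptide CAMP and thrombomodulin THBD were below background on both arrays. The other 4 of the 6 above background had lower values with PADMA28, none past 2-fold, and the median of the 6 was -0.22. DHCR7, which uses up the precursor of vitamin D, differed by -0.46, the calcium pump ATP2B1 by -0.42, IGFBP3, a binding protein of insulin-like growth factors, by -0.42 and CDKN1A, a cell cycle inhibitor, by -0.02.

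Fatty acid and eicosanoid hydroxylases were the role group with the most members above background, 7 of 13, while 1 of these, CYP4F11, passed 2-fold. CYP4F11, a fatty acid omega-hydroxylase, was at 7.09 with EtOH and at 8.83 with PADMA28. The difference of 1.74, or 3.34-fold, ranked 28 among all genes, and 0.347% of the genes above background differed as much. Its relatives in the CYP4F subfamily differed little between the arrays. CYP4F3, an omega-hydroxylase of leukotriene B4, was at 9.27 and 9.54 (0.27), and 35.3% of the genes above background differed by at least that. CYP4F2, which also acts on vitamin K, was at 8.60 and 8.77 (0.17), and CYP4F12 at 8.90 and 9.02 (0.12). A probe set shared by CYP4F2 and CYP4F3 went from 8.74 to 9.26, a difference of 0.52, which is 0.36 above that of the CYP4F2 probe set and 0.25 above that of the CYP4F3 probe set. Over 4912 genes with at least 2 probe sets above background, the gap between the differences of the brightest pair had a median of 0.14 and a 95th percentile of 0.59, so both gaps lay within the range common for 1 gene. The CYP4F2 and CYP4F12 probe sets are of types that the array's naming marks as able to bind related transcripts.

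The CYP4F genes form a cluster on chromosome 19, in the order CYP4F22, CYP4F8, CYP4F3, CYP4F12, CYP4F2 and CYP4F11. The first pair was below background on both arrays and the other 4 were above, so the only member past 2-fold stood at 1 end of the row. The sequence before the start of transcription is shown for CYP4F11, at the upstream one of its pair of RefSeq starts, and for its neighbour CYP4F2, which differed little between the arrays. Each run is the 250 bases before a start, read 5′ to 3′ on the gene's strand, from RefSeq (GRCh38.p14). Capitals mark the letters TGACNNNGC on either strand, the core of the antioxidant response element that NRF2 binds. The letters GCGTG on either strand, the core bound by the dioxin receptor, were searched as well and would also be in capitals.
CYP4F11, upstream start (chr19:15934868-15935117, minus strand): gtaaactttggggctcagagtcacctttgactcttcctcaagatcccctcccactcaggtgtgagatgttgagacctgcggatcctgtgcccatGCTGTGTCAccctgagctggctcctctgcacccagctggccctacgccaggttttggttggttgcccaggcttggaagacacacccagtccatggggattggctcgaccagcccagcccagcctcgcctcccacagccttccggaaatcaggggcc
CYP4F2 (chr19:15898075-15898324, minus strand): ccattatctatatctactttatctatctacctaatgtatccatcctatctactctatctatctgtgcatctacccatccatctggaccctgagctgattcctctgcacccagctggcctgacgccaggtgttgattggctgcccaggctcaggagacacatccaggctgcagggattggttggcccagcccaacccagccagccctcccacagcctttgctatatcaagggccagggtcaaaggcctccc

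The window before the upstream CYP4F11 start resembled that of CYP4F2, with 74.7% identity over 225 aligned bases. The window before the downstream CYP4F11 start, which lies inside the longer transcription unit and is not shown, resembled that of CYP4F3, with 78.7% identity over 216 aligned bases. The antioxidant core stood once, in the window of the upstream CYP4F11 start, as GCTGTGTCA at positions -156 to -148 from the start and thus on the reverse strand. It was not in the other 3 windows. These letters occur in 10.9% of the 35116 RefSeq windows of this length. They occur in 4 of the 46 windows of the 33 members that have one. Besides CYP4F11 these members were CYP4F8 and CYP2B6, below background on both arrays, and CYP4V2, at the background limit. For those the arrays could not show whether the level differs. CYP24A1 and CYP4F12 had no window, so they were not searched. GCGTG, found in 32.2% of all windows and in 8 of the 46, was in neither CYP4F11 window and not in those of CYP4F2 and CYP4F3. A match describes letters and does not show a site in use.

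**Figure D2:**
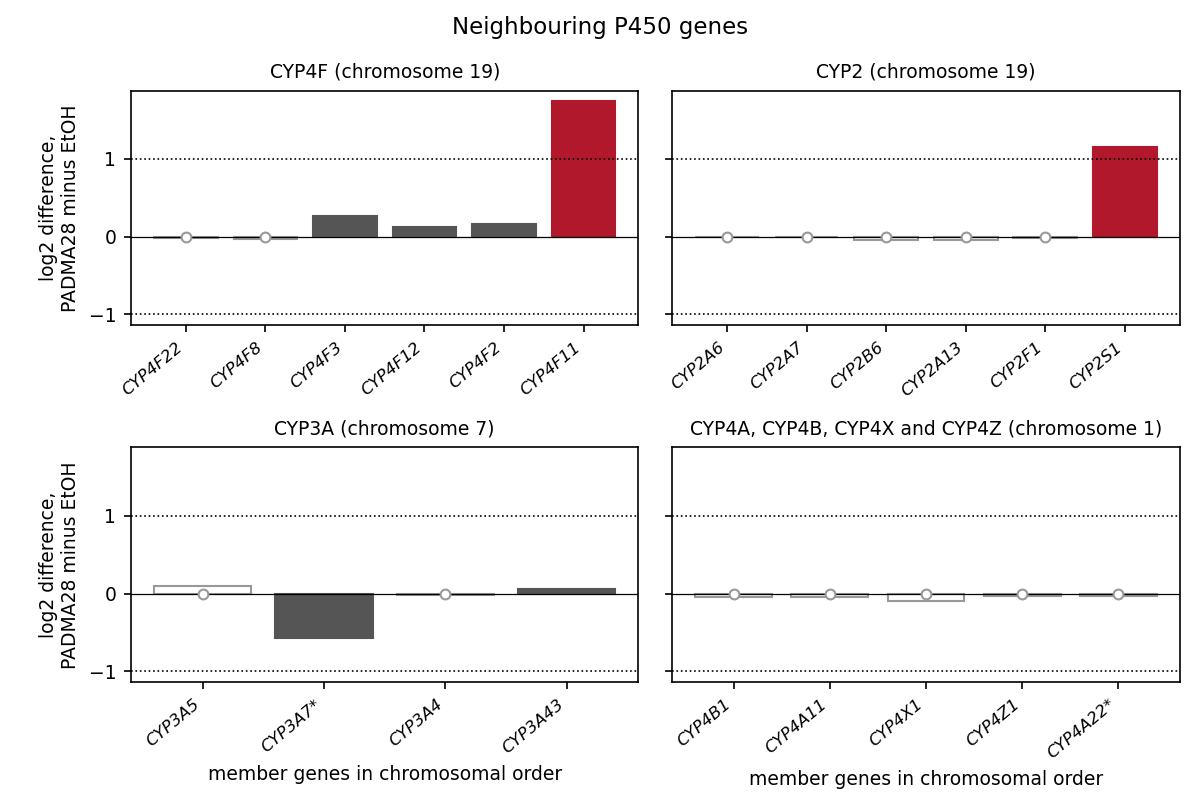
Log2 difference, PADMA28 minus EtOH, of neighbouring P450 genes in chromosomal order, from 1 array per treatment, in 4 clusters. Red bars are more than 2-fold higher, grey bars are above background, open bars with a circle at 0 are below background on both arrays, asterisks mark genes measured on a shared probe set, and dotted lines mark 2-fold; CYP4F11 and CYP2S1 are the last genes of their rows.

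The remaining fatty acid hydroxylases above background did not pass 2-fold. CYP2J2, an epoxygenase of arachidonic acid, was at 9.36 and 9.37, a difference of 0.01. CYP2U1, a hydroxylase of long-chain fatty acids, was at 6.25 and 6.35 on its brightest probe set, while its other 3 were below background. CYP4V2, known from a hereditary corneal and retinal dystrophy, was at the limit with EtOH (4.26) and below it with PADMA28 (4.08), so no fold change is given. CYP4A11, CYP4B1, CYP4X1, CYP4Z1, CYP4F8 and CYP4F22 were below background on both arrays, as were the 3 probe sets shared by CYP4A11 and CYP4A22.

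Among other enzymes of eicosanoids and epoxides, 2 of 13 were more than 2-fold higher and none lower, against 0.875% and 0.384% of all genes. Both were picked by the study from these arrays, so the count is not independent evidence. The prostaglandin reductase PTGR1 was at 9.33 with EtOH and 11.75 with PADMA28 on its brightest probe set, a difference of 2.42. Its other probe sets went from 7.61 to 10.50 and, from below background, from 2.75 to 7.53. The microsomal epoxide hydrolase EPHX1 was at 11.21 and 12.54. The leukotriene A4 hydrolase LTA4H differed by 0.05 and the soluble epoxide hydrolase EPHX2 by 0.08. The remaining 9, which include the cyclooxygenases PTGS1 and PTGS2 and the lipoxygenases ALOX5 and ALOX15, were below background on both arrays.

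CYP2S1, a P450 of epithelia that accepts retinoids and eicosanoids and is known as inducible by dioxin, was the highest of the group for drugs and other foreign compounds. It was at 6.11 with EtOH and at 7.27 with PADMA28, above background on both arrays. The difference of 1.16, or 2.23-fold, ranked 112 of all genes, and 1.47% of the genes above background differed as much. It was close to the threshold and no longer past 2-fold with 16 added to both linear values, while 64 added gave 0.71. CYP2S1 is the last of the row CYP2A6, CYP2A7, CYP2B6, CYP2A13, CYP2F1 and CYP2S1 on chromosome 19, and the other 5 were below background on both arrays. The 250 bases before its start, shown because it was the only gene of that row above background, held neither TGACNNNGC nor GCGTG.
CYP2S1 (chr19:41192969-41193218, plus strand): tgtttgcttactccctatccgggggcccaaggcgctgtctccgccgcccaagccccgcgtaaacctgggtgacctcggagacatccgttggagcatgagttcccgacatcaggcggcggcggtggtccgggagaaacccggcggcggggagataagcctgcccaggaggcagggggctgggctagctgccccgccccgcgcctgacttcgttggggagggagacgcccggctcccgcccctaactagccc

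Most P450 enzymes of drugs and other foreign compounds were below background in both groups on their own probe sets, so that no change in those was detectable here. Of the 12 genes of this group that have their own probe set, CYP2S1 and CYP3A43 were above background. CYP3A43, the least abundant CYP3A gene of the liver, was at 4.53 and 4.59 on its brightest probe set, and its other 3 were below. All 4 are of a type that the array's naming marks as able to bind related transcripts. CYP3A4, CYP3A5, CYP2B6, CYP2C8, CYP2D6, CYP2E1 and CYP2A6 were below background on both arrays. A pair of probe sets shared between genes in this group had a signal. One that covers CYP3A7, the CYP3A enzyme of the fetal liver, and its read-through with CYP3A51P was at 4.68 with EtOH and at 4.11, below background, with PADMA28, which is at least 1.25-fold lower. Another, shared by CYP2D6, its pseudogene CYP2D7 and a further locus, was at 5.69 and 5.46, a difference of -0.23, while both probe sets of CYP2D6 alone were below background.

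**Figure D3:**
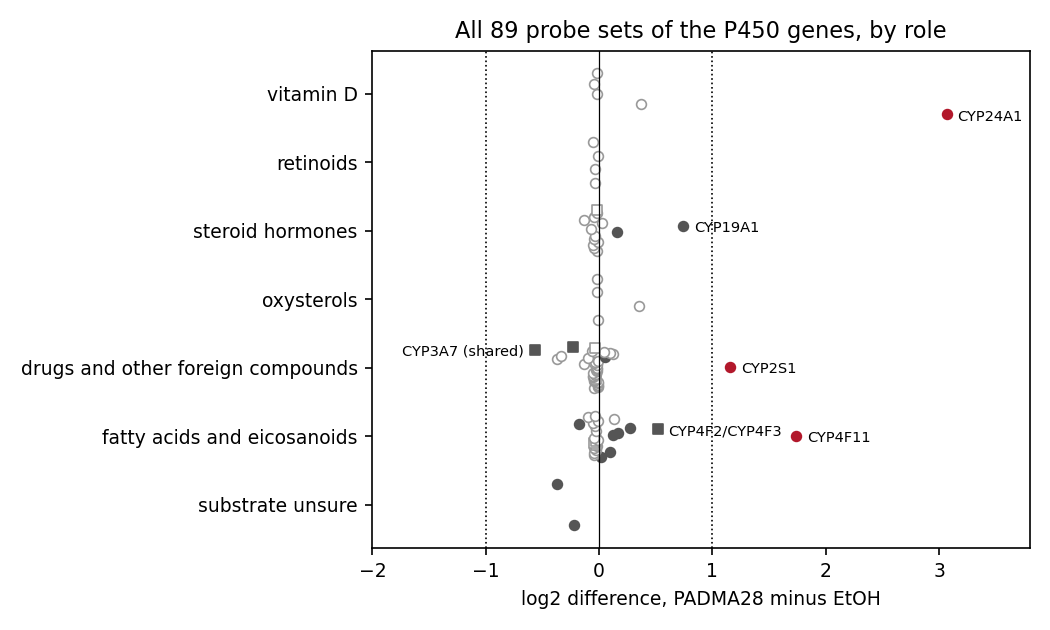
Log2 difference, PADMA28 minus EtOH, of all 89 probe sets that name a member, from 1 array per treatment, grouped by the role of the enzyme. Circles are probe sets of 1 gene and squares shared ones, filled symbols are above background on at least 1 array and open ones below on both, red is more than 2-fold higher, and dotted lines mark 2-fold; most probe sets lie close to 0 and none lies beyond the lower line.

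Of the steroid hormone enzymes, CYP19A1 alone was above background. CYP19A1 is aromatase, which turns androgens into estrogens. Its brightest probe set was at 8.29 with EtOH and at 9.03 with PADMA28, a difference of 0.75 or 1.68-fold, which 5.18% of the genes above background reached in either direction. A second probe set, at 5.97 and 6.13, differed by 0.16, a gap of 0.59 that lies at the 95th percentile of such gaps over all genes with a pair of probe sets above background (0.59). The other 5 of its 7 probe sets were below background, with differences from -0.13 to 0.03, and the median over all 7 was -0.02. CYP11A1, which opens steroid synthesis from cholesterol, CYP17A1 of androgen synthesis, CYP11B1 and CYP11B2 of the adrenal cortex and the probe set shared by CYP21A2 and CYP21A1P were below background on both arrays.

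The retinoic acid hydroxylases CYP26A1 and CYP26B1 and the retinoid desaturase CYP27C1 were below background on both arrays, with differences from -0.05 to -0.03. Retinoic acid is known to induce CYP26A1 in liver cells. Of 10 measured genes that handle retinoids or respond to them, 4 were above background, and in the others a fall could not be seen. Among the 10, 1 was more than 2-fold higher and none lower, against 0.875% and 0.384% of all genes. This was the retinal dehydrogenase ALDH1A1, which the study had picked from these arrays, at 11.92 with EtOH and 13.21 with PADMA28. The retinal reductase DHRS3 was at 9.65 and 9.26, a difference of -0.39. The retinol dehydrogenase RDH10 differed by -0.14 and the plasma carrier of retinol RBP4 by 0.05.

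A pair of P450 genes without an agreed substrate had lower values with PADMA28, neither past 2-fold. CYP2W1, an enzyme found in colorectal tumours, was at 7.72 with EtOH and at 7.35 with PADMA28. This difference of -0.37 was reached in size by 23.2% of the genes above background. CYP20A1 was at 9.15 and 8.94, a difference of -0.22. CYP39A1 and CYP46A1, the members with a role in oxysterols, were below background on both arrays. Over the 27 members below background the differences ran from -0.10 to 0.37, and 24 lay within 0.1 of 0, so at this end of the scale the values hardly move and no fold change can be given. The highest were CYP27B1 (0.37) and CYP39A1 (0.36).

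**Figure D4:**
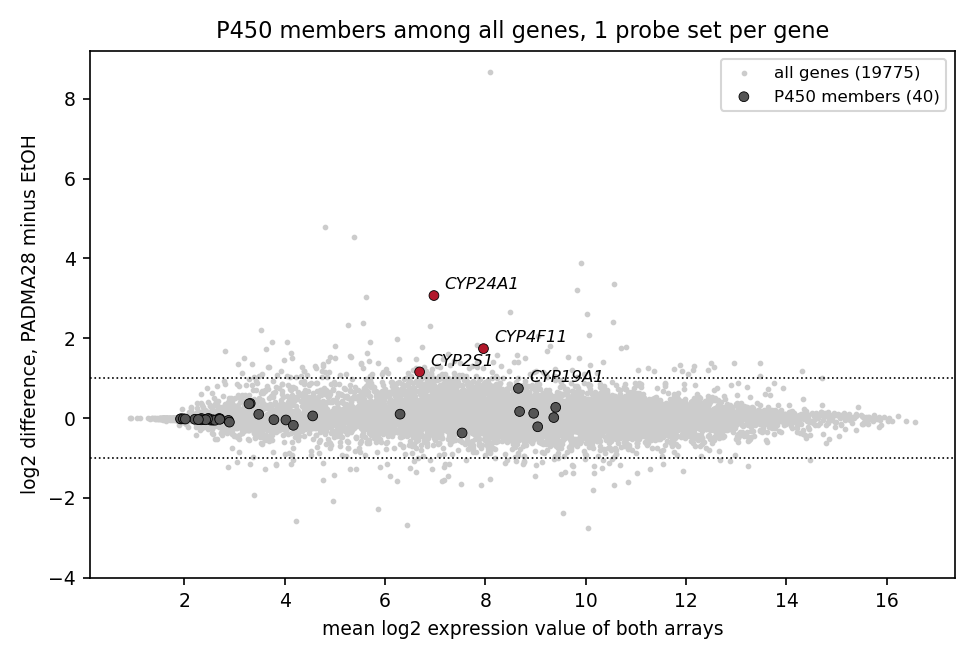
Log2 difference, PADMA28 minus EtOH, against the mean log2 expression value of both arrays, with 1 array per treatment, for 19775 genes (light grey) and the 40 P450 members (outlined, red when more than 2-fold higher). Dotted lines mark 2-fold, and CYP24A1, CYP4F11 and CYP2S1 lie above the upper line while the members at the left, near background, lie along 0.

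The 7 measured electron carriers and other partners of the P450 enzymes were all above background, and none passed 2-fold. FDXR and PGRMC1, also on this list, had no probe set of their own and were not measured. The P450 reductase POR was at 12.55 with EtOH and 12.70 with PADMA28. Cytochrome b5, CYB5A, had the largest difference, from 12.20 to 12.91 (0.72 or 1.64-fold). Ferredoxin FDX1, the donor of mitochondrial P450 enzymes such as CYP24A1, was at 10.47 and 10.63, and PGRMC2, a heme-binding membrane protein, differed by -0.08. The median of the 7 was 0.06.

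Of 18 measured transcription factors known to control P450 genes, 13 were above background and none passed 2-fold in either direction. Among the largest differences were those of the hepatocyte factor FOXA2, from 11.32 to 10.52 (-0.80), the stress-responsive CEBPB, from 13.56 to 14.31 (0.75), the dioxin receptor AHR, from 11.15 to 10.50 (-0.65), and its partner ARNT, from 7.81 to 7.38 (-0.43). The orphan receptor NR5A2 was below background with EtOH (4.01) and at 4.48 with PADMA28, which is at least 1.18-fold higher. NFE2L2, which encodes NRF2, differed by -0.13 and the fatty acid receptor PPARA by 0.08. The constitutive androstane receptor NR1I3 was below background on both arrays, as were RARB, RARG and RXRG.

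**Figure D5:**
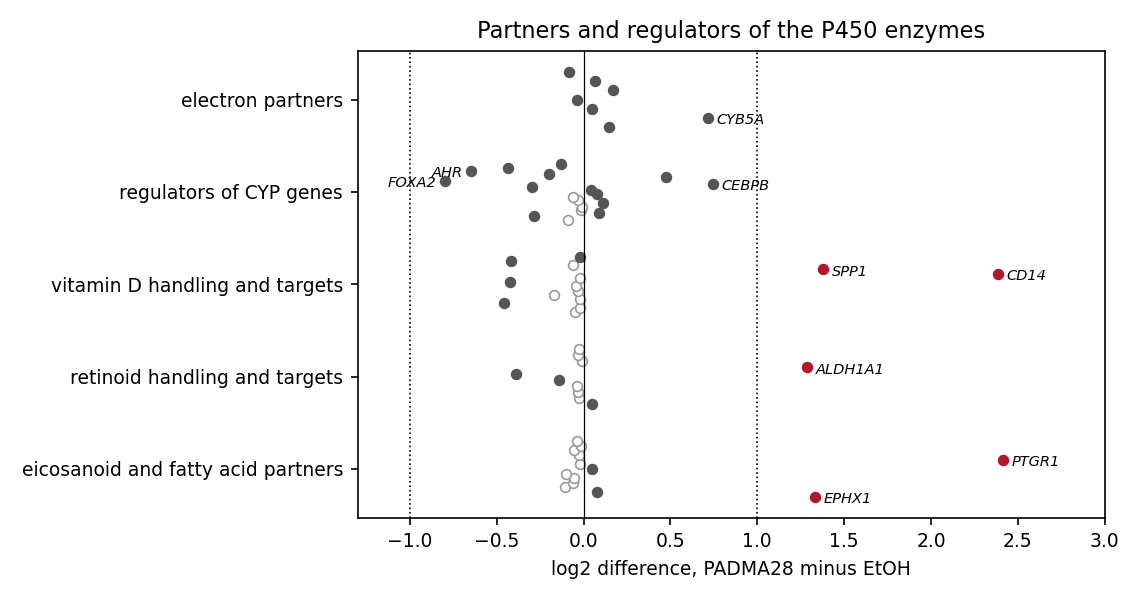
Log2 difference, PADMA28 minus EtOH, of the measured genes of 5 lists around the P450 enzymes, from 1 array per treatment. Each point is a gene, filled when above background on at least 1 array and open when below on both, red is more than 2-fold higher, and dotted lines mark 2-fold; CD14, SPP1, ALDH1A1, PTGR1 and EPHX1 lie beyond the upper line and no gene of the 5 lists beyond the lower one.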

How the data were processed

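The authors turned the scans of both arrays into log2 expression values with GCRMA (background by probe sequence, quantile normalization, median polish per probe set), and the deposited table holds 54675 probe sets. GCRMA 2.28.0 under R 2.15.1 is what the submitters' notes on processing list. The study also mentions an unspecific filter, which was not used here. Quantile normalization sets both distributions nearly equal, with medians of 3.13 (EtOH) and 3.08 (PADMA28), so a shift shared by most genes would not be seen. The number of arrays, 1 per treatment, limits the precision, and no p-value can be given.

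From these values the log2 difference PADMA28 minus EtOH was taken, with 2-fold as the threshold, as in the study. The platform annotation gave 1 gene for 41097 probe sets, several for 1801 and none for 11777, and all 44 members kept their symbol in the RefSeq table of GRCh38.p14. For a member above the background limit on 1 array only, the fold was taken against the other limit and is a minimum. Named are the members above background on any array, shared probe sets, and in each list of partners and regulators the genes past 2-fold or, if above background, among the 4 with the largest absolute differences. Other genes were added with their values in view. Members and lists were chosen with earlier results of these data known. Promoter windows were aligned globally with free end gaps. The alternatives concerned the probe set of a gene, constants added to the linear values, centring, probe set types, shared probe sets and the background limit. The steps were tested on simulated data with known changes in genes well above background, which does not cover genes nearer to it. Tools were Python 3.11.15, pandas 2.3.3, numpy 2.4.6, matplotlib 3.10.9 and statsmodels 0.14.6.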

Additional observations from a re-analysis of the deposited data

How the results depend on the processing

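CYP24A1 and CYP4F11 were more than 2-fold higher under each of the 9 alternatives run for them, with differences from 2.00 to 3.09 and from 1.37 to 1.77. CYP2S1 passed 2-fold under 7 of 9, and with 16 or 64 added to both linear values, where it did not, 2 members were counted as higher. Each of these genes has only 1 probe set of its own. The alternatives on the choice, type and sharing of probe sets therefore returned their reported values by construction. Only the added constants and the centring could move them. No member was more than 2-fold lower under any alternative run. The difference of CYP19A1 ran from -0.02 (median over its probe sets) to 0.77, and that of CYP3A43 from -0.37 (largest of its probe sets) to 0.09. With the probe set shared by CYP4F2 and CYP4F3 counted for both, CYP4F2 was at 0.52. The number of members above background was 18 with a limit 1 log2 unit over the most frequent value and 11 with 3, and over those 11 the median difference was 0.17. Without replicates, none of these ranges measures the spread between cultures. No paired analysis was possible because each treatment has 1 array.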

Other observations

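Apart from the genes left out by name, which are not covered here, P450 genes and pseudogenes outside the symbol rule were mostly at background. Thromboxane synthase TBXAS1 and prostacyclin synthase PTGIS, which are P450 proteins under other symbols, were below background on both arrays, with differences of -0.02 and -0.04. So were the probe sets of the pseudogenes CYP2A7P1, CYP2B7P, CYP4F30P, CYP4F62P and CYP4Z2P. The read-through transcript of CYP3A7 and CYP3A51P had a probe set of its own above background on both arrays, at 5.33 with EtOH and 5.09 with PADMA28. The difference of -0.24 was in the same direction as that of the probe set it shares with CYP3A7. By its name, the read-through probe set is also of a type able to bind related transcripts.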
